A study of Mus musculus with 19 samples.

Results

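The genes described here are 10 markers of progenitor and universal fibroblasts: Cd34, Pi16, Dpp4, Ly6a, Ly6c1, Clec3b, Scara5, Sema3c, Cd55 and Dpt. They were chosen by symbol, and each symbol named 1 row of the deposited count table, so they make up 10 of its 12799 genes. The study sorted yellow fluorescent fibroblasts from the peritoneum of C57BL/6;Col1a1-YFP mice and profiled them by MARS-seq, a method that counts tags at the 3' ends of polyadenylated RNA. Tumour-bearing mice had received tdTomato+ ID8 cells, a mouse ovarian carcinoma line, by intraperitoneal injection. Fibroblasts came from 5 mice at day 7, from 5 mice at day 28 and from 4 mice at the end stage (replicates 2 to 5), and 5 normal mice served as controls. The labels describe control mice as injected intraperitoneally with PBS, the carrier of the tumour cells. All mice carried the same reporter, in which the Col1a1 promoter drives YFP, so a fibroblast that made little Col1a1 could have escaped the sort. The libraries are labelled as biological replicates of separate mice, whose age and sex the labels do not give.

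Single-cell atlases of mouse tissues describe a fibroblast state marked by Pi16, Dpp4, Cd34, Ly6a, Clec3b and Dpt, in the adventitia of vessels, from which more specialised fibroblasts are thought to arise. Cd34, Ly6a, Ly6c1, Dpp4 and Cd55 encode cell surface proteins, Scara5 a scavenger receptor, and Pi16, Clec3b, Sema3c and Dpt secreted or matrix proteins. Cd34, Ly6a and Ly6c1 are also made by endothelial cells, and Dpp4 and Cd55 by several other cell types.

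Library totals ran between 66061 and 2449339 counts, a range of 37.1-fold, with group medians of 304626 for normal, 313890 for day 7, 172313 for day 28 and 378400 for the end stage. Levels are given as CPM, counts scaled to 1 common library size after TMM normalization. They compare 1 gene between libraries and do not rank genes against each other. Changes are log2 fold changes of edgeR's quasi-likelihood test, and p-values were adjusted by Benjamini-Hochberg over the 5980 genes that passed the filter on low counts, with 0.05 as threshold. 9 of the 10 genes passed that filter, and Dpp4 did not. In such bulk libraries fewer cells of a type and less RNA per cell cannot be told apart.

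The start sites of the genes differ in base composition. The windows of 250 bases before to 50 after the start site are shown for Cd34, Cd55, Sema3c and Dpt. Cd34 fell at the end stage against day 28, and Cd55 and Sema3c had large negative fold changes at the end stage. Dpt had a log2 fold change at the end stage of -0.11 against normal and -0.39 against day 7. The windows come from RefSeq (build GRCm38.p6, while the submitters' processing notes name GRCm39 for the counts). Of the 10 genes, 7 had a window in that table. The sequences run 5′ to 3′ on the strand of the gene, and capitals mark matches on either strand to the TATA box motif TATAAA, the GC box motif GGGCGG, the pentamer CCAAT, or the hexamer GATAAG bound by GATA factors. Cd34 lies at chr1:194938571-194938870 on the plus strand, Cd55 at chr1:130462695-130462994 on the minus strand, Sema3c at chr5:17574566-17574865 on the plus strand and Dpt at chr1:164796413-164796712 on the plus strand.
Cd34: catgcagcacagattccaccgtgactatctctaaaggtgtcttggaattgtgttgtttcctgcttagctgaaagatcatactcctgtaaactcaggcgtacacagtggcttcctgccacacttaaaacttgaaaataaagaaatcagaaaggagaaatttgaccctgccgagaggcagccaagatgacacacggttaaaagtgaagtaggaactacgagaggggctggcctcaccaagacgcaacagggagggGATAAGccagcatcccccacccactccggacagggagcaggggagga
Cd55: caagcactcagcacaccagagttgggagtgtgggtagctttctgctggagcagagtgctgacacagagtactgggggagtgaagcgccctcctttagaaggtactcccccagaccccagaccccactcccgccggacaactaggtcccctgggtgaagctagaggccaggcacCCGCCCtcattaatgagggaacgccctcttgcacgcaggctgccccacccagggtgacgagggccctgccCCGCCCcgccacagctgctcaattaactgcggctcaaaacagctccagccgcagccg
Sema3c: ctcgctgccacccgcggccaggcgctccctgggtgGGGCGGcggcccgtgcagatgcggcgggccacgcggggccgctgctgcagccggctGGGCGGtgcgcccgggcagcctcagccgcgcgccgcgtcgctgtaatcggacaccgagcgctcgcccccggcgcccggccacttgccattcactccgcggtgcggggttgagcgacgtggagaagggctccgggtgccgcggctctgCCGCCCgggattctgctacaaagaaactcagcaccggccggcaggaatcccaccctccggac
Dpt: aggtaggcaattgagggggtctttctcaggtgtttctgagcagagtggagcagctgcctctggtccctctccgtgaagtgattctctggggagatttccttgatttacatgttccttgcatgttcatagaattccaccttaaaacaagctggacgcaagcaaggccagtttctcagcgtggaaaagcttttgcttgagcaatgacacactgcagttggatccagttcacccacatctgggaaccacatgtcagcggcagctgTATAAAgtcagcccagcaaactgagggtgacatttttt
The Cd34 window held 1 GATAAG, which 7.4% of the 32851 windows in the table also hold. The Cd55 window held 2 GC boxes and the Sema3c window 3, a motif found in 35.7% of all windows, and their GC contents of 63.3% and 75.7% stood above the median of 52.7%. The Dpt window, at 48.7% GC, held 1 TATAAA, found in 13.6% of all windows. That match began at base 13 after the annotated start and so did not lie upstream of it. Of the other windows, those of Dpp4 and 1 start of Ly6c1 held a TATAAA, beginning at -227 and -143 from the start. The windows of that Ly6c1 start and of Pi16 held a CCAAT, which 37.4% of all windows hold. Ly6c1 had 2 windows in the table, and the second held neither motif. These are matches of letters within a short window and were not tied to the levels below.

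Cd34, a sialomucin of the cell surface, was the 1 gene of the 10 that passed the test, and it did so between the end stage and day 28. Its level was 1860, 1870, 1671, 1655 and 1521 CPM in normal libraries. At day 7 it was 1197, 1832, 1657, 1456 and 1599 CPM, and at day 28 it was 1719, 1823, 2288, 1884 and 1726 CPM. At the end stage it was 1174, 1324, 571 and 690 CPM, so all 4 libraries lay below every normal and every day 28 library, while 1174 CPM in replicate 2 lay just below the lowest day 7 value of 1197 CPM and 1324 CPM in replicate 3 lay above it. Cd34 fell to 940 ± 365 CPM at the end stage (SD, n = 4), against 1888 ± 234 CPM at day 28 (SD, n = 5), a log2 fold change of -1.004 (SE 0.231, 95% interval -1.47 to -0.54, adjusted p = 0.0382). It was the only gene of all 5980 called lower in that comparison, 0.0167% of genes, while 0.385% were called higher. Against normal (1715 ± 149 CPM, n = 5) the log2 fold change was -0.87 (SE 0.229, adjusted p = 0.0815), and against day 7 (1548 ± 238 CPM, n = 5) it was -0.72 (SE 0.228, adjusted p = 0.192), both short of the threshold. The call against day 28 rested on single libraries: the adjusted p was 0.351 without end stage replicate 4, 0.132 without end stage replicate 5, and between 0.0531 and 0.122 without any 1 of the day 28 libraries. The log2 fold change ran between -1.23 and -0.75 over the 30 alternatives tried.

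**Figure D1:**
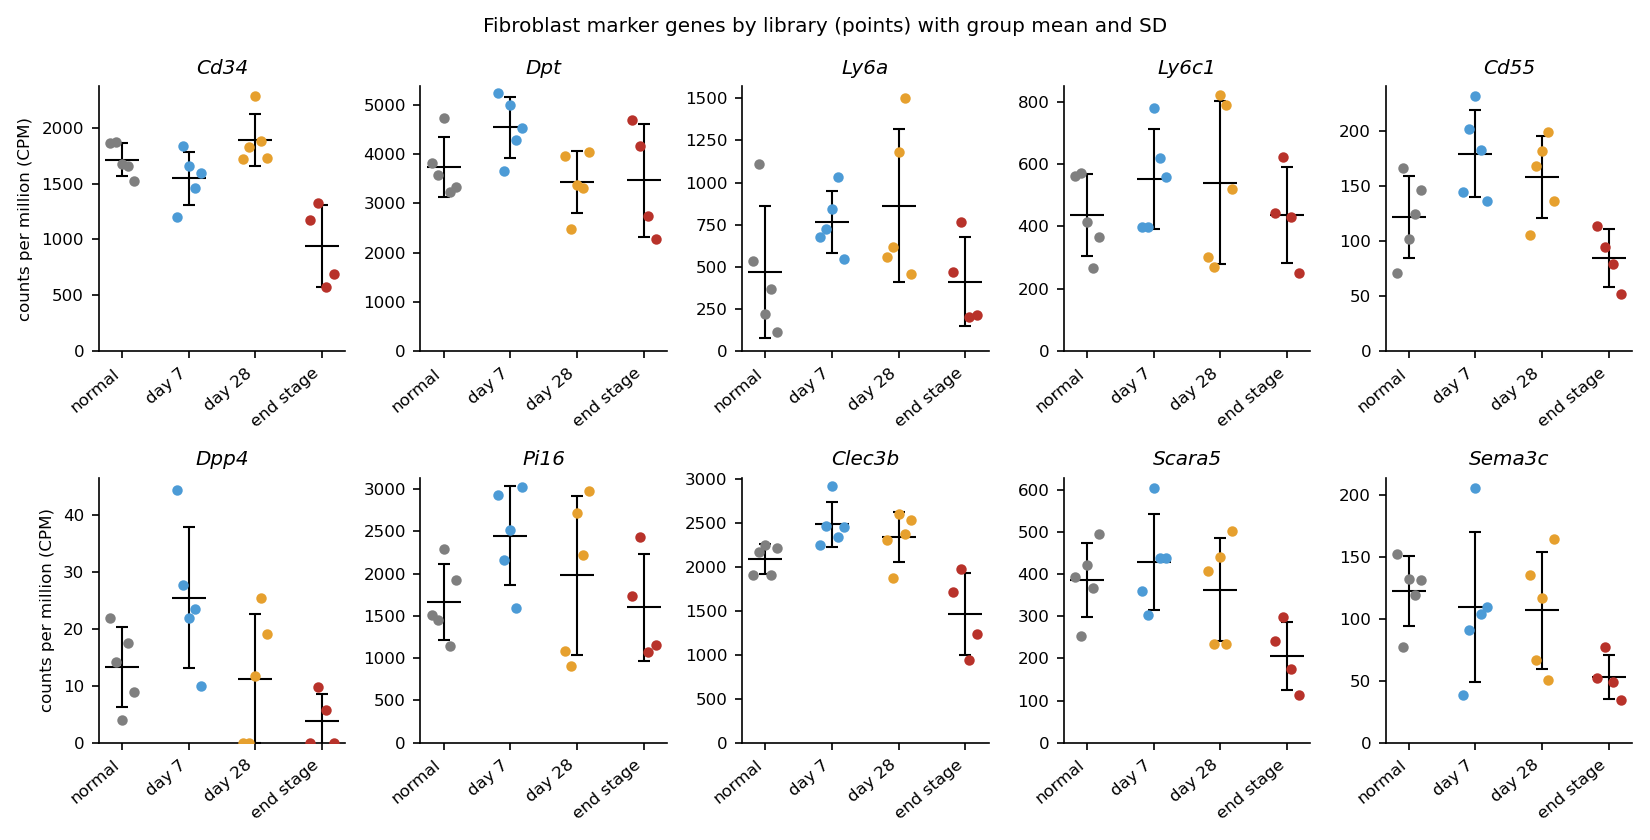
Level of each of the 10 genes in CPM (vertical axis, starting at 0) in the 19 libraries, by group (horizontal axis). Points are libraries, the wide bar is the group mean and the whiskers are 1 SD. For Cd34 the 4 end stage libraries, between 571 and 1324 CPM, lie below the normal range of 1521 to 1870 CPM, while the Dpt groups overlap.

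Endothelial cells also carry Cd34, and markers of that cell type were low throughout. Of 14 listed endothelial markers 13 were in the table and 3 passed the filter, and their summed level was 109 to 329 CPM at the end stage, against 244 to 409 CPM at day 28 and 108 to 328 CPM in normal libraries. Pecam1 did not exceed 33.9 CPM in any library and Cdh5 did not exceed 30.5 CPM. Kdr averaged 48.9 ± 13.8 CPM at the end stage and 89.2 ± 39.2 CPM at day 28 (log2 fold change -0.86, SE 0.458, adjusted p = 0.570). All 3 tested markers had negative fold changes at the end stage against day 28 and against normal. By mean CPM the 13 markers were mixed against normal. Kdr, Tek, Esam, Cdh5 and Lyve1 were lower at the end stage, with Tek at 32.6 CPM against 51.9 CPM. Pecam1, Flt1, Ptprb, Vwf, Tie1, Egfl7, Cldn5 and Robo4 were higher, with Pecam1 at 21.6 CPM against 9.67 CPM. The part of these markers' cells in the fold change of Cd34 was not tested.

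Among the other surface proteins, Cd55, the decay-accelerating factor that limits complement on cells, had its lowest levels at the end stage. It was at 71, 166, 102, 124 and 146 CPM in normal libraries, at 144, 201, 231, 182 and 136 CPM at day 7 and at 106, 168, 182, 199 and 136 CPM at day 28. At the end stage it was at 113.8, 94.6, 78.9 and 51.8 CPM. All 4 end stage values lay below every day 7 value, while they overlapped the normal and day 28 ranges. The log2 fold change at the end stage was -1.06 against day 7 (SE 0.282, adjusted p = 0.0964), -0.88 against day 28 (SE 0.296, adjusted p = 0.239) and -0.53 against normal (SE 0.284, adjusted p = 0.752), and none passed the test.

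Ly6a, which encodes the stem cell antigen Sca-1, was the most variable of the 9 tested genes. It ran between 113.5 CPM in normal replicate 5 and 1502 CPM in day 28 replicate 4, a range of 13.2-fold, with a coefficient of variation of 57.8% over all libraries. In normal libraries alone it was at 535, 1108, 223, 371 and 113.5 CPM, so the normal group itself spanned most of the range below 1108 CPM. At day 7 it was at 676, 726, 845, 1032 and 548 CPM, at day 28 at 558, 615, 1179, 1502 and 458 CPM and at the end stage at 468, 764, 201 and 216 CPM. The fold change with the largest size was -1.06 for the end stage against day 28 (SE 0.565, adjusted p = 0.574). The fold change against normal at the end stage, -0.20, was 0.43 without normal replicate 2.

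Ly6c1, a relative of Ly6a anchored to the membrane by the same kind of lipid, showed no group that stood apart. It averaged 436 ± 131 CPM in normal mice, 551 ± 160 CPM by day 7, 540 ± 261 CPM by day 28 and 436 ± 152 CPM at the end stage, and its log2 fold change at the end stage was 0.02 against normal (SE 0.304, 95% interval -0.60 to 0.64, adjusted p = 0.994). At day 28 its libraries fell into a low set of 302 and 268 CPM in replicates 1 and 2, which had the lowest totals, and a higher set of 821, 789 and 520 CPM. The last 200 bases of Ly6c1 transcripts in GENCODE M21 were 96.0% identical to those of Ly6c2, and were also alike to those of Ly6a. Counts of 3' tags could therefore be shared between these genes, most of all between Ly6c1 and Ly6c2, and the levels of Ly6a and Ly6c1 are uncertain to that extent.

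Dpp4, a surface peptidase and a leading marker of the progenitor state, had few counts. They were 4, 11, 1, 7 and 3 in normal libraries, 8, 7, 37, 19 and 3 at day 7, 0, 0, 2, 5 and 8 at day 28, and 0, 4, 14 and 0 at the end stage. In the 4 libraries at 0 the totals allow a level of up to 45.4 CPM (3 counts) in day 28 replicate 1, 35.7 in day 28 replicate 2, 9.30 in end stage replicate 2 and 26.5 in end stage replicate 5. With no filter on low counts the log2 fold change at the end stage was -2.17 against day 7 (SE 0.703, unadjusted p = 0.00269, adjusted p = 0.196), the value farthest from 0 among its comparisons, and none of them passed the test.

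Among the genes of secreted proteins none passed edgeR's test. Clec3b, which encodes the plasminogen-binding protein tetranectin, was at 1909, 2170, 2253, 1909 and 2220 CPM in normal libraries and at 2249, 2471, 2921, 2344 and 2453 CPM at day 7. It was at 2307, 1879, 2604, 2377 and 2540 CPM at day 28 and at 1714, 1981, 939 and 1243 CPM at the end stage. The end stage values lay below every day 7 value, and replicate 3 reached into the normal and day 28 ranges. The log2 fold change at the end stage was -0.76 against day 7 (SE 0.213, adjusted p = 0.107), -0.67 against day 28 (SE 0.213, adjusted p = 0.185) and -0.52 against normal (SE 0.212, adjusted p = 0.479).

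Sema3c, a secreted semaphorin that guides axons and vascular cells, had few counts, between 4 and 348 per library. It was at 153, 77.2, 133, 119 and 131 CPM in normal libraries and at 38.8, 90.8, 206, 104 and 110 CPM at day 7. It was at 136, 67.1, 117, 50.9 and 165 CPM at day 28 and at 52.0, 77.6, 49.04 and 34.5 CPM at the end stage. End stage replicate 3 lay just above the lowest normal library, so the groups overlapped. The log2 fold change at the end stage was -1.13 against normal (SE 0.372, adjusted p = 0.230), -1.07 against day 7 (SE 0.366, adjusted p = 0.294) and -0.99 against day 28 (SE 0.389, adjusted p = 0.356).

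Scara5, the scavenger receptor that takes up ferritin, was at 393, 252, 422, 368 and 496 CPM in normal libraries and at 360, 304, 605, 438 and 439 CPM at day 7. It was at 407, 235, 440, 234 and 501 CPM at day 28 and at 241, 298, 175 and 112 CPM at the end stage. All 4 end stage values lay below every day 7 value, and replicate 3 reached into the normal range, while replicate 2, at 241 CPM, lay below every normal library. Replicates 2 and 3 lay within the day 28 range. The log2 fold change at the end stage was -1.04 against day 7 (SE 0.284, adjusted p = 0.101), -0.87 against normal (SE 0.284, adjusted p = 0.222) and -0.80 against day 28 (SE 0.290, adjusted p = 0.304).

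Pi16 and Dpt, leading markers of the universal state, differed little between the end stage and normal. Pi16, a secreted peptidase inhibitor, averaged 1667 ± 447 CPM in normal mice, 2446 ± 586 CPM by day 7, 1980 ± 941 CPM by day 28 and 1601 ± 630 CPM at the end stage, with a log2 fold change of -0.06 at the end stage against normal (SE 0.302, 95% interval -0.68 to 0.56, adjusted p = 0.987). Its lowest value of 906 CPM was in day 28 replicate 2 and its highest of 3028 CPM in day 7 replicate 5. Dpt encodes dermatopontin, a matrix protein that binds decorin. It was at 3829, 3577, 4728, 3230 and 3326 CPM in normal libraries and at 4691, 4163, 2747 and 2278 CPM at the end stage, a log2 fold change of -0.11 (SE 0.220, 95% interval -0.56 to 0.34, adjusted p = 0.977). At day 7 Dpt averaged 4547 ± 617 CPM and at day 28 it averaged 3436 ± 628 CPM, the lowest group mean. These intervals leave room for changes in either direction.

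At the early stages none of the 9 tested genes passed edgeR's test. At day 7 against normal 7 of 9 fold changes were positive, beside 2864 of all 5980 genes, with a median of 0.28 beside -0.02. The values farthest from 0 were 0.69 for Ly6a (SE 0.515), 0.55 for Pi16 (SE 0.285) and 0.53 for Cd55 (SE 0.255), each with an adjusted p of 0.999. The Ly6a value was 1.33 without normal replicate 2 and 0.44 without normal replicate 5. Of the 9 genes Cd55 alone had an unadjusted p under 0.05 (0.0444), beside 208 of all 5980 genes. Of all genes 0.0334% were called higher and 0.0167% lower in that comparison. At day 28 against normal 6 of 9 fold changes were positive, beside 2877 of all 5980 genes, with a median of 0.16. None of the 9 had an unadjusted p under 0.05, and of all genes 0% were called higher and 0% lower. At day 28 against day 7 the median was -0.09 with 7 of 9 negative, beside 51.3% of all genes. None of the 9 had an unadjusted p under 0.05 there, and edgeR again called 0% of all genes higher and 0% lower. Of all genes 422 at day 28 against normal and 538 at day 28 against day 7 had an unadjusted p under 0.05, where DESeq2 called 0 and 0 and limma-voom 0 and 30. At day 7 against normal DESeq2 called 0.0313% of its genes and limma-voom 0.151%, and at day 28 against day 7 limma-voom called 0.502%. Neither tool called any of the 9 in these 3 comparisons.

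At the end stage most of the fold changes were negative. Against normal 8 of 9 were negative, beside 52.0% of all genes, with a median of -0.52 beside -0.02. Of the 9, 4 were lower at an unadjusted p under 0.05, beside 3.34% of all genes. Yet 0 of 9 passed, while 0.318% of all genes were called higher and 0.0836% lower. DESeq2 and limma-voom each called 1 of them lower there, Cd34, beside 0.192% and 0.251% of the genes each tool tested. Against day 28 the median was -0.80 beside -0.01 over all genes, with 8 of 9 negative, beside 50.5% of all genes. In that comparison 5 of the 9 were lower at an unadjusted p under 0.05, beside 3.58% of all genes, and 1 was called. DESeq2 called Cd34 and Clec3b lower in it, beside 0.19% of genes, and limma-voom called Cd34, beside 0.0334%. Dpt was the exception in sign at 0.02, and it was negative under DESeq2 size factors, library size scaling and scaling to the summed pan-fibroblast genes. Against day 7 all 9 were negative, beside 50.2% of all genes, with a median of -0.76 beside -0.003. 5 of them were lower at an unadjusted p under 0.05, beside 3.71% of all genes. 0 passed, beside 0.401% of all genes called higher and 0.0669% lower. There DESeq2 called 3 lower, Cd55, Clec3b and Scara5, beside 0.393% of genes. By limma-voom those and Cd34 were called lower, beside 0.702%. The 3 end stage comparisons share their end stage libraries, so their values are not independent of each other.

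**Figure D2:**
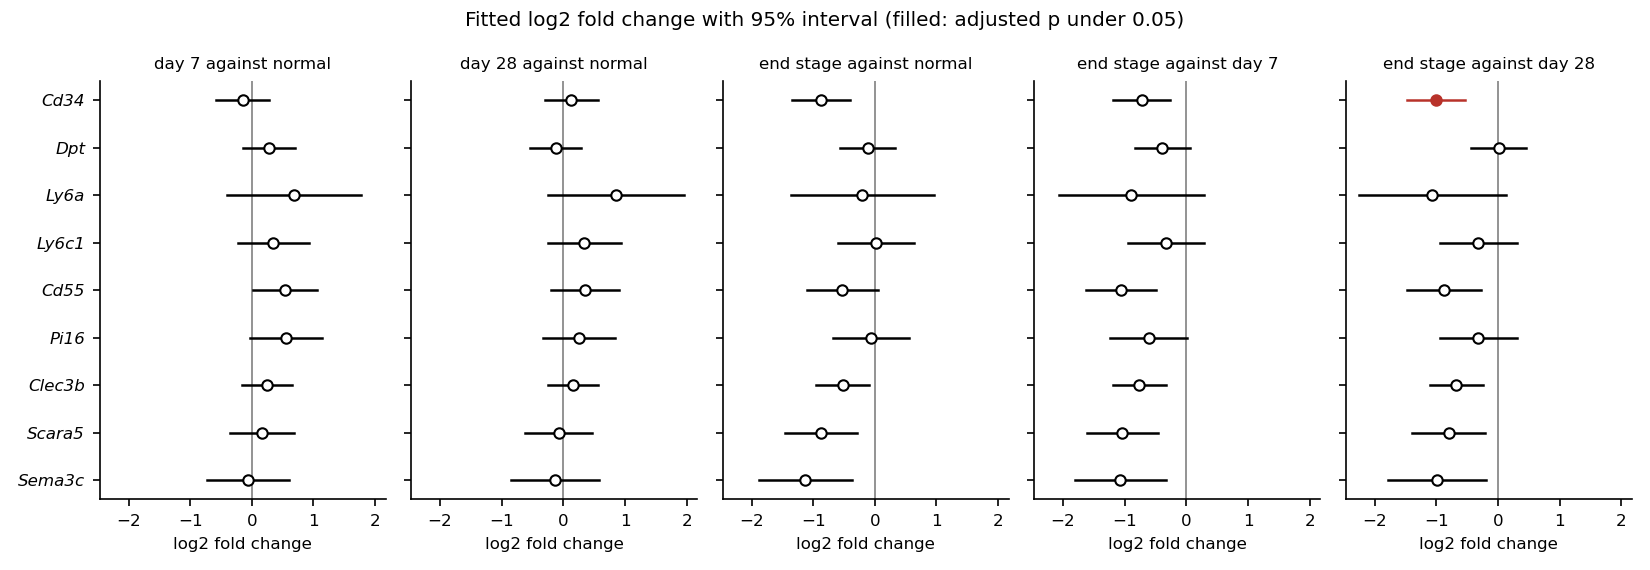
Fitted log2 fold change (horizontal axis) of the 9 tested genes (vertical axis) in 5 comparisons, each point with its 95% interval. The filled point, Cd34 at the end stage against day 28 (-1.004), is the only point with an adjusted p under 0.05.

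In some genes all end stage libraries lay below every library of the other group. Against normal this held for 1 of 9, Cd34, beside 1.4% of all genes, against day 28 for 1 of 9, Cd34, beside 0.853%, and against day 7 for 3 of 9, Cd55, Clec3b and Scara5, beside 1.54%. A joint test of the 3 tumour stages against normal called 0 of 9, beside 0.686% of all genes. In it 5 of 9 had an unadjusted p under 0.05, beside 536 of all 5980 genes. The smallest adjusted p in it was 0.097 for Cd34, and DESeq2 called 2 of the 9, beside 0.637% of genes, and limma-voom 3, beside 1.64%. In none of the 9 genes did groups that are neighbours in the order of their means pass the test. Cd34 had the order day 28, normal, day 7, end stage from high to low. Pi16, Clec3b and Cd55 had the order day 7, day 28, normal, end stage, and 7 of the 9 had their lowest mean at the end stage, while Ly6c1 had it in normal and Dpt at day 28.

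In the authors' deposited table Cd34 had a log2 fold change of -1.03 for the end stage against day 28 with an adjusted p of 0.00239, and Clec3b had -0.697 with an adjusted p of 0.0583. Against normal the authors' deposited table gives Cd34 at -0.879 with an adjusted p of 0.0176. For the end stage against day 7 the authors' deposited table gives Clec3b at -0.763 (adjusted p 0.0181), Cd55 at -1.06 (adjusted p 0.0466) and Scara5 at -1.04 (adjusted p 0.0699). These 6 values meet the thresholds for the adjusted p (0.1) and the absolute log2 fold change (0.58) listed in the authors' deposited table. At those 2 thresholds 0.11% of genes in the authors' deposited table are lower at the end stage against day 28, 0.141% against normal and 0.18% against day 7. These 6 fold changes differed from the fitted ones above by little, and their adjusted p-values were smaller than those of edgeR. That did not hold for every gene. For Sema3c at the end stage against day 28 the authors' adjusted p was 0.561, where edgeR gave 0.356.

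The end stage libraries were not alike. All 9 tested genes were lower in replicates 4 and 5 than in replicates 2 and 3, with medians over the 9 of -1.14 and -1.12 on the log2 scale relative to the normal mean in replicates 4 and 5, and of -0.10 and -0.08 in replicates 2 and 3. In replicates 4 and 5 all 9 genes lay below the normal mean, against 6 of 9 in replicate 2 and 5 of 9 in replicate 3. No share or median over all genes was computed for these libraries, so these counts and medians have no background to be judged by. Whether the split is particular to these markers was not tested. The summed level of the 10 genes was 10137 and 11178 CPM in replicates 2 and 3 and 6265 and 6177 CPM in replicates 4 and 5, against 9605 to 11685 CPM in normal libraries. Replicates 4 and 5 also held the lowest sums of all 19 libraries for further progenitor genes and for Col15a1 universal genes, given below. Replicate 4 had the highest total of the series, 2449339 counts, and replicate 5 the lowest of its group, 113163 counts, so the deepest and the shallowest library of that group held the low levels. Over all 19 libraries Spearman's correlation of a gene's level with the library total was between -0.30 (Cd34) and 0.41 (Ly6c1), given as a description.

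**Figure D3:**
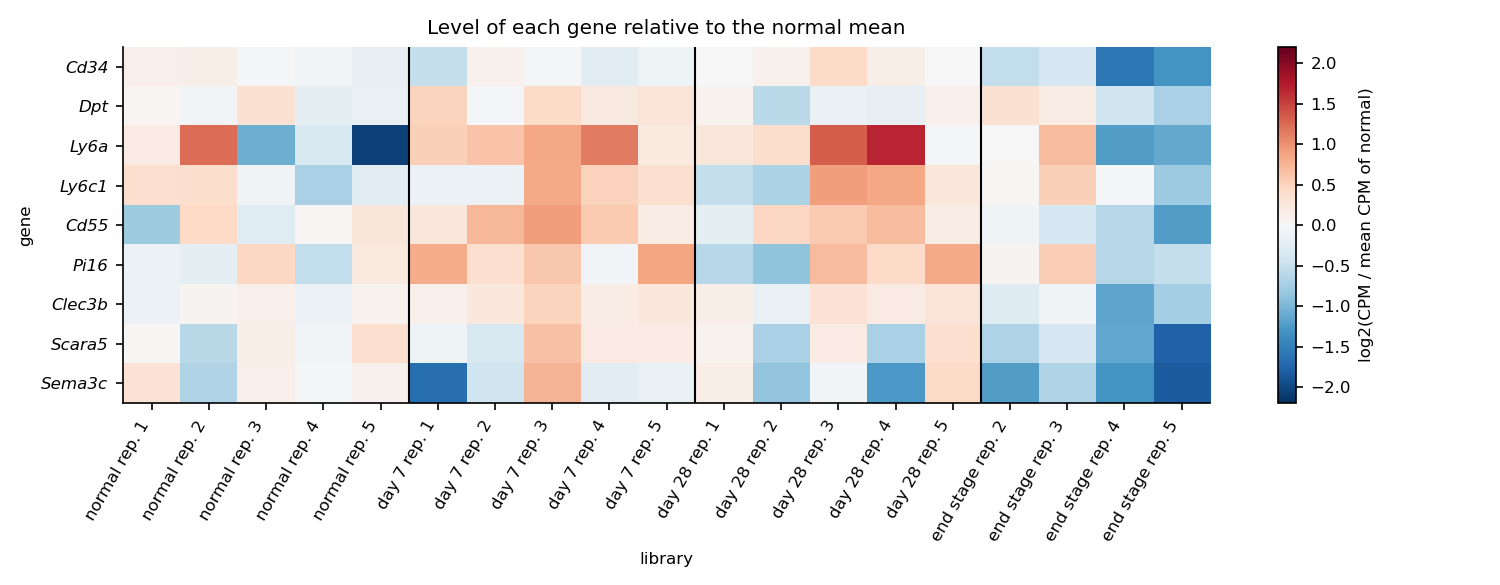
Level of the 9 tested genes (rows) in each of the 19 libraries (columns, by group), as the log2 ratio of CPM to the normal mean, from blue (below) to red (above). End stage replicates 4 and 5 are below the normal mean in all 9 genes, and normal libraries themselves vary most in Ly6a.

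Other gene groups were set beside these libraries. Summed immune markers reached 83.7, 122, 357 and 141 CPM in end stage replicates 2 to 5, against 37.6 to 96.9 CPM in normal libraries and 11.9 to 136 CPM at day 28. Of the 18 listed immune markers 10 were in the table, Ptprc was at 0 in 16 of 19 libraries, and C1qa, a complement gene of macrophages, was the 1 that passed the filter, at 65.3 ± 52.2 CPM at the end stage and 19.2 ± 14.0 CPM in normal (adjusted p = 0.235). C1qa rose at the end stage against day 7 to 65.3 ± 52.2 CPM, against 7.79 ± 6.48 CPM (log2 fold change 2.96, SE 0.636, adjusted p = 0.0263), a call that DESeq2 did not make and that was lost without end stage replicate 4 or any 1 of day 7 replicates 1 to 4. C1qa passed the filter in only 17 of the 19 fits that left out 1 library. A gene low elsewhere could pass it through the end stage alone, so this rise is not independent of the filter. Summed mesothelial markers were 313 to 795 CPM at the end stage, 254 to 954 CPM at day 7 and 472 to 816 CPM at day 28, against 634 to 1586 CPM in normal libraries. Of 10 tested mesothelial markers 10 had negative fold changes against normal at day 7 (median -0.81), 8 at day 28 (-0.43) and 9 at the end stage (-0.68). Their part in the levels of the 10 genes was not tested.

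Summed pan-fibroblast genes such as Col1a1 and Pdgfra, which mark fibroblasts in general, were 44453 to 51846 CPM at the end stage, against 40627 to 46043 CPM in normal libraries. None of the 13 passed the test in any end stage comparison by edgeR, DESeq2 or limma-voom, and 3 had an unadjusted p under 0.05 against normal. Against normal 8 were positive and 5 negative, with a median of 0.12. Dcn, the proteoglycan decorin, averaged 3295 ± 860 CPM at the end stage, against 4240 ± 1563 CPM in normal (log2 fold change -0.37, adjusted p = 0.962), and its log2 fold change was -0.97 against day 28 (unadjusted p = 0.0494) and -1.21 against day 7 (unadjusted p = 0.0176). Col3a1 averaged 12900 ± 2930 CPM at the end stage and 7628 ± 1804 CPM in normal (log2 fold change 0.75, SE 0.245, adjusted p = 0.222). When the libraries were scaled to this sum, the median fold change of the 9 genes at the end stage against normal was -0.70, and Cd34 against day 28 was -1.05 with an adjusted p of 0.0965.

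Genes of activated fibroblasts and myofibroblasts had fold changes of the opposite sign. Of the 9 of 16 that were tested, 8 had positive fold changes at the end stage against normal with a median of 1.49, and 2 rose. The filter asked for enough counts in as many libraries as the smallest group held, which was the end stage. A gene low elsewhere could thus enter the test through that group alone, so the share of positive signs is not independent of the filter. Runx1 was tested in only 18 of the 19 fits that left out 1 library. Runx1, a transcription factor, rose to 87.6 ± 69.4 CPM at the end stage, against 11.5 ± 8.8 CPM in normal (log2 fold change 2.77, SE 0.581, adjusted p = 0.0214). Cthrc1, a secreted collagen triple helix protein, rose to 161 ± 110.8 CPM, against 53.5 ± 25.6 CPM in normal (log2 fold change 1.59, SE 0.380, adjusted p = 0.0485), and also rose against day 28 (2.10, SE 0.436, adjusted p = 0.0214). Against day 7, Runx1 (3.11, SE 0.588, adjusted p = 0.0105) and Tagln, an actin-binding protein of contractile cells (2.46, SE 0.476, adjusted p = 0.0159), rose. Postn averaged 466 ± 367 CPM at the end stage and 169 ± 85.4 CPM in normal (adjusted p = 0.156). The summed level of this list was 2565, 3638, 6399 and 4233 CPM in end stage replicates 2 to 5, highest in replicate 4, against 2129 to 3673 CPM in normal libraries. At day 7 the sum was 2751 to 6163 CPM with a median of 3600, beside a median of 3935 at the end stage, so these groups overlapped. At day 28 it was 2255 to 3413 CPM. Cthrc1 no longer passed against normal under DESeq2 size factors, library size scaling or scaling to the pan-fibroblast sum, while Runx1 passed under all 3. Without end stage replicate 4 none of these calls held. Runx1 also lost its call against normal without normal replicate 3 or 4, Cthrc1 lost its call against normal in 15 of 19 fits that left out 1 library, and its call against day 28 was lost in 4 of 19. Against day 7, Runx1 also lost its call without day 7 replicate 4, and Tagln without any 1 of day 7 replicates 2, 3 and 4.

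Further genes of the Pi16 and Dpp4 progenitor state did not pass the test. Of 20 listed genes 18 were tested, and 12 had negative fold changes at the end stage against normal with a median of -0.23, 15 against day 28 with a median of -0.46, and 16 against day 7 with a median of -0.56. In these comparisons 0 of 18 passed by edgeR or by DESeq2, while 2, 3 and 5 had an unadjusted p under 0.05. With limma-voom, Efemp1 was called lower against day 7. Fbn1, the fibrillin of microfibrils, was at 1366 ± 311 CPM at the end stage and 1010 ± 134 CPM in normal (log2 fold change 0.43, SE 0.227, adjusted p = 0.752). Efemp1, a fibulin, was at 275 ± 54.8 CPM at the end stage and 432 ± 64.1 CPM in normal (log2 fold change -0.64, SE 0.270, adjusted p = 0.536). Cd248, the surface protein endosialin, was at 1007 ± 413 CPM at the end stage and 986 ± 286 CPM in normal (log2 fold change 0.03, SE 0.272, adjusted p = 0.991). The summed level of the list was 10854, 14489, 8756 and 10012 CPM in end stage replicates 2 to 5, against 10427 to 14793 CPM in normal libraries.

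The Col15a1 universal state, described beside the Pi16 state in atlases, had mixed signs. Its summed level was 26997, 32292, 15175 and 21226 CPM in end stage replicates 2 to 5, against 26508 to 36337 CPM in normal libraries. Of 12 tested genes 7 were positive and 5 negative at the end stage against normal, and 0 passed by edgeR or DESeq2, with 4 at an unadjusted p under 0.05. Col4a2, a basement membrane collagen, averaged 1011 ± 340 CPM at the end stage and 501 ± 152 CPM in normal (log2 fold change 1.01, SE 0.274, adjusted p = 0.107), and limma-voom called it higher. Ebf2, a transcription factor of adipose precursors, averaged 34.99 ± 12.5 CPM at the end stage and 66.2 ± 19.2 CPM in normal (log2 fold change -0.93, SE 0.382, adjusted p = 0.479). Of 6 tested genes of adipocyte commitment 4 were positive, and 0 passed by edgeR, DESeq2 or limma-voom, with 2 at an unadjusted p under 0.05.

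Immediate-early genes, which tissue dissociation can induce, mostly had negative fold changes at the end stage. Of 19 tested 17 had negative fold changes against normal with a median of -0.50, and Fosb fell to 1433 ± 343 CPM, against 3022 ± 488 CPM in normal (log2 fold change -1.09, SE 0.244, adjusted p = 0.0264), a call that was lost when libraries were scaled to the pan-fibroblast sum, or without end stage replicate 4 or any 1 of normal replicates 2 to 4. Egr1 averaged 3418 ± 280 CPM at the end stage and 5819 ± 1211 CPM in normal (log2 fold change -0.78, SE 0.228, adjusted p = 0.156). Their summed level was 25453, 23826, 25374 and 36858 CPM in end stage replicates 2 to 5, against 32855 to 50050 CPM in normal libraries. Its part in the levels of the 10 genes was not tested.

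Interferon-stimulated genes were set beside Ly6a and Ly6c1, which interferon can induce. Of 16 tested 15 had negative fold changes at the end stage against day 28 with a median of -0.50, and 14 had positive ones at day 28 against normal with a median of 0.54. By edgeR, DESeq2 or limma-voom 0 passed in either, with 5 and 4 at an unadjusted p under 0.05. Irf9 averaged 71.8 ± 24.5 CPM at the end stage and 139 ± 31.2 CPM at day 28 (log2 fold change -0.93, SE 0.364, adjusted p = 0.356). The summed level was 1346 to 1669 CPM at the end stage, against 1181 to 4074 CPM at day 28.

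**Figure D4:**
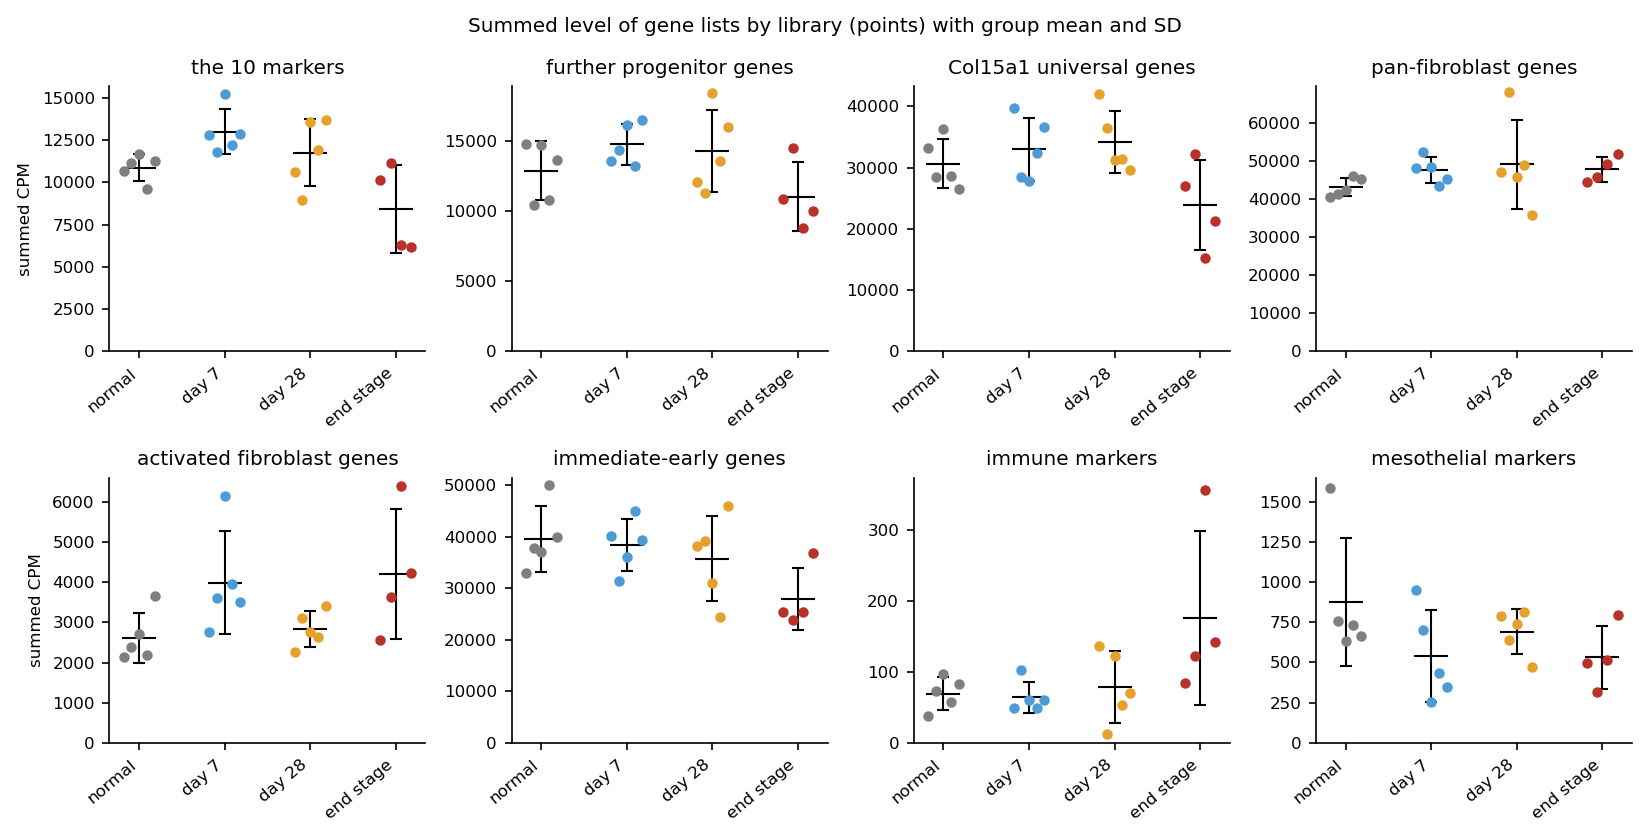
Summed CPM (vertical axis, starting at 0) of 8 gene lists in the 19 libraries by group (horizontal axis), with points for libraries, wide bars for means and whiskers of 1 SD. The sums are scaled by raw library totals, without TMM. The 10 markers are at 6265 and 6177 CPM in end stage replicates 4 and 5, while the pan-fibroblast sums run between 44453 and 51846 CPM at the end stage, and immune markers peak at 357 CPM in replicate 4.

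Pairs of the 9 tested genes differed in how closely they varied together, and Dpp4 was left out for its low counts. Over the 19 libraries all 36 pairs had a positive Pearson correlation of log2 CPM, with a median r of 0.51. By a permutation test of 100000 resamples, two-sided, with Benjamini-Hochberg adjustment over the 36 pairs, 18 passed by Pearson's r and 7 by both r and Spearman's rho. The resamples shuffled all 19 libraries, so differences between groups enter these p-values. No share over pairs of all genes was computed, so these counts have no background to be judged by. Without the end stage libraries the median r was 0.26 and 2 pairs passed, Scara5 with Sema3c and Pi16 with Clec3b. As deviations from the group means the median r was 0.40 and 33 of 36 were positive. Without the 3 libraries under 150000 counts 6 pairs passed.

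The pairs Scara5 with Sema3c and Pi16 with Clec3b passed by Pearson's r in each of the 3 alternatives tried. For Scara5 and Sema3c r was 0.85 (adjusted p = 0.00036) and rho 0.84 (adjusted p = 0.00108) over 19 libraries, r was 0.80 without the 2 libraries farthest from the median of Scara5, 0.81 without the low totals and 0.76 without the end stage. Pi16 and Clec3b had an r of 0.63 (adjusted p = 0.00982) and rho of 0.68 (adjusted p = 0.0138), an r of 0.75 without the 2 farthest libraries, and 0.72 without the end stage. Cd34 and Clec3b had an r of 0.85 (adjusted p = 0.00324) but a rho of 0.46 (adjusted p = 0.109), and r was 0.38 without the 2 farthest libraries and 0.05 without the end stage, so that relation rested on the end stage libraries. Cd34 and Dpt had an r of 0.30 over all libraries and of -0.57 without the end stage. Ly6a and Ly6c1, whose tags may be shared, had an r of 0.62 and of 0.58 without the end stage.

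**Figure D5:**
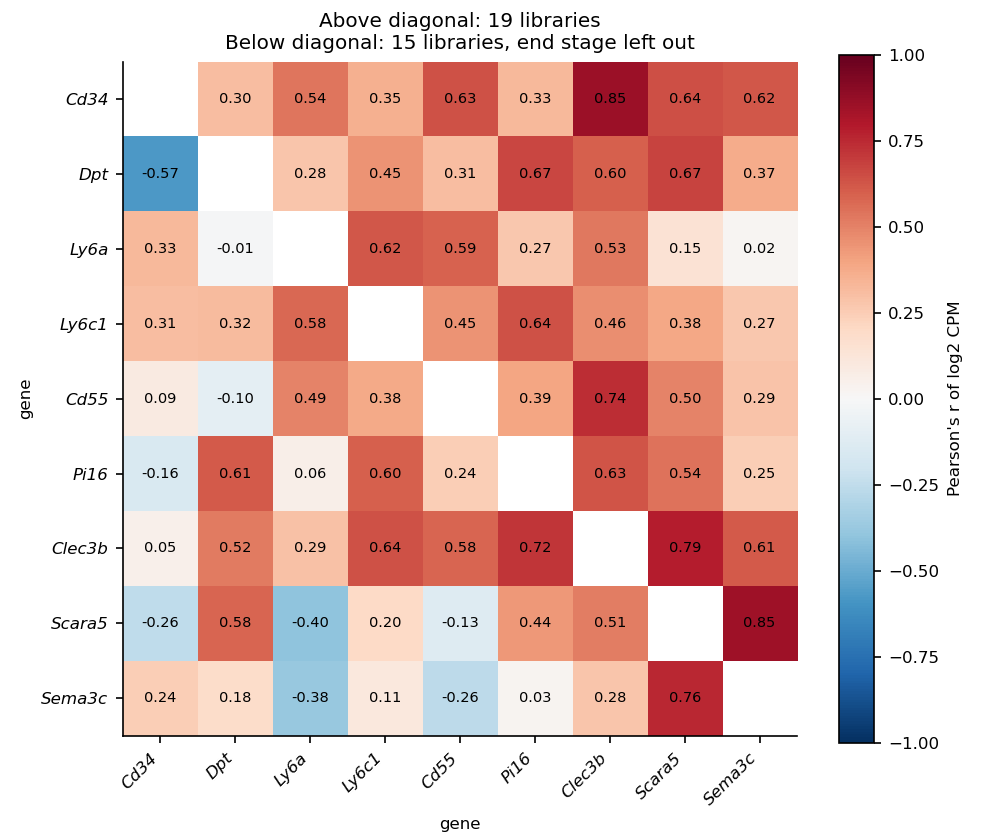
Pearson's r of log2 CPM between the 9 tested genes, from blue (negative) to red (positive), over 19 libraries above the diagonal and over the 15 libraries other than end stage below it. Scara5 with Sema3c is high in both (0.85 and 0.76), while Cd34 with Clec3b is 0.85 above and 0.05 below.

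The genes whose profile over the 19 libraries was most like each member are given as a description, since all share depth and library. For Cd34 they were Timp2 (r 0.89), Clec3b (0.85) and Ramp2 (0.85), for Clec3b Cd34 (0.85), Timp2 (0.81) and Scara5 (0.79), and for Scara5 Man1a (0.85), Sema3c (0.85) and Lrrn4cl (0.80). Sema3c had Scara5 (0.85), Igfbp5 (0.85) and Man1a (0.82). Pi16 had Mgll (0.84), Mepce (0.78) and Dpep1 (0.76), and Dpt had Rarres2 (0.86), Myoc (0.80) and Slc25a23 (0.80). Ly6c1 had Jak1 (0.83), Ifitm3 (0.80) and Ly6e (0.78), Ly6a had Serpinb6a (0.81), Rpl7 (0.80) and Lgals9 (0.73), and Cd55 had Lrrc17 (0.77), Bcap31 (0.74) and Vegfa (0.74). Other members appear among the 3 nearest genes for Cd34, Clec3b, Scara5 and Sema3c, and for none of the other 5.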

How the data were processed

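Fibroblast RNA of 19 mice was read by MARS-seq. Raw counts of each gene in each library were deposited, per the file headers, and every value was whole. The authors also deposited a normalized signal, which equalled the count divided by 1 size factor per library within 0.01 in 100% of values and was used for that check only. The authors' deposited table holds log2 fold changes, p-values and other values, the thresholds listed in it. DESeq2 and build GRCm39 are named in the submitters' processing notes. How tags were aligned, annotated and collapsed by molecular identifier is not given in the sources used here. Tags may therefore not be independent molecules, and the limits given for counts of 0 cover counting error only.

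Counts were filtered with filterByExpr (minimum count 10) and fitted with edgeR 4.0.16 in R 4.3.3 as 1 model of 4 groups, with TMM scaling, robust quasi-likelihood tests and Benjamini-Hochberg adjustment over 5980 genes. CPM of single genes used TMM library sizes, and correlations were computed on log2 CPM (prior count 2). Summed CPM of gene lists used raw library totals. Alternatives were DESeq2 1.42.0, limma 3.58.1 (voom with quality weights), other scalings and filters, a replicate block, depth and left-out libraries. Every column of values per library was mapped to a labelled sample. No 2 libraries held identical values.

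The members and gene lists were chosen with earlier results of these data known. The genes named from other lists are at most 4 per list with the smallest unadjusted joint p, and for each member with a mean of at least 50 CPM the 3 other tested genes of at least that mean with the highest Pearson r over the 19 libraries. Not all of those list genes are printed, and genes named for a call under another tool, and Pecam1, Cdh5 and Ptprc as defining markers, were named after their values were seen. The endothelial markers named only for the direction of their means were also named after their values were seen. Promoter windows came from RefSeq (GRCm38.p6), and 3' ends from GENCODE M21.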

Additional observations from a re-analysis of the deposited data

Results flagged for a closer look

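Cd34 in day 28 replicate 3 stood apart from its group, at 2287.54 CPM where the other 4 libraries lay between 1719 and 1884 CPM. Its gap to the nearest library, 0.71 of the range of the group, passed the limit of 0.71 for 5 samples by a small margin. 40 groups were examined and 1 was flagged, while chance flags about 1 in 20. Without this library Cd34 at the end stage against day 28 had a log2 fold change of -0.93 (adjusted p = 0.122).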

How the results depend on the processing

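Cd34 at the end stage against day 28 was called with DESeq2, limma-voom, DESeq2 size factors, library size scaling, a stricter filter and the replicate block, and not with no filter on low counts, with the 2 groups alone, without libraries under 150000 counts, with libraries thinned to 200000 counts, or scaled to the pan-fibroblast sum, an alternative chosen after seeing the data: 1 member was called in the main analysis and 0 in each of these. DESeq2 called 2 members there, and leaving out 1 library gave 0 to 1. Against normal at the end stage 0 members were called in the main analysis and 1, Cd34, with DESeq2, limma-voom, library size scaling and the replicate block, and leaving out 1 library gave 0 to 1. Against day 7 at the end stage DESeq2 called 3, limma-voom 4 and the replicate block 1, and leaving out 1 library gave 0 to 1. Jointly over the 3 stages DESeq2 called 2, limma-voom 3, library size scaling 1 and the replicate block 1, and leaving out 1 library gave 0 to 1. The counts of members called at day 7 and day 28 against normal and between them stayed at 0 in every alternative. The replicate numbers were not taken to pair the libraries, since only 14 of 27 pairs with the same number had a correlation of deviations over 0.1. These ran between -0.443 and 0.545, with a median of 0.1004 against -0.065 for other pairs, and 8 of 19 libraries correlated best with their own number, a hint from the data of a shared number effect and not from the design. The block added Cd34 against normal and jointly and Cd55 against day 7, and removed no call. Of 36 correlations between members 18 were called, 6 without libraries under 150000 counts, and 2 without the end stage libraries, the last chosen after seeing the data. Of 54 fold changes 13 changed sign in some alternative, the largest of them 0.292 in size in the main analysis, and the cause was not tested. Without libraries under 150000 counts the log2 fold changes that turned were 0.071 for Pi16 (end stage against normal), 0.12 for Pi16 (day 28 against day 7), 0.35 for Ly6c1 (day 28 against day 7), 0.015 for Clec3b (day 28 against day 7), 0.038 for Scara5 (day 28 against normal) and 0.051 for Dpt (end stage against normal). Thinned to 200000 counts the log2 fold changes that turned were 0.021 for Pi16 (end stage against normal), 0.17 for Pi16 (day 28 against day 7), 0.16 for Ly6a (end stage against normal), 0.36 for Ly6c1 (day 28 against day 7), 0.054 for Scara5 (day 28 against normal), 0.30 for Sema3c (day 7 against normal), 0.11 for Sema3c (day 28 against normal) and 0.039 for Dpt (end stage against normal). With limma-voom the log2 fold changes that turned were 0.085 for Ly6a (end stage against normal), -0.20 for Ly6a (day 28 against day 7), 0.12 for Sema3c (day 7 against normal) and -0.0399 for Dpt (end stage against day 28). With library size scaling the log2 fold changes that turned were -0.031 for Ly6c1 (end stage against normal) and -0.037 for Dpt (end stage against day 28). With the replicate number as a block the log2 fold change that turned was -0.12 for Ly6c1 (end stage against normal). Scaled to the pan-fibroblast sum the log2 fold changes that turned were -0.17 for Ly6c1 (end stage against normal), 0.0305 for Ly6c1 (day 28 against day 7), 0.044 for Sema3c (day 28 against day 7) and -0.075 for Dpt (end stage against day 28). With DESeq2 the log2 fold changes that turned were 0.0033 for Ly6c1 (day 28 against day 7) and -0.0037 for Dpt (end stage against day 28). With DESeq2 size factors in edgeR the log2 fold changes that turned were 0.0051 for Ly6c1 (day 28 against day 7) and -0.011 for Dpt (end stage against day 28). Leaving out 1 library gave -0.34 to 0.11 for Pi16 (end stage against normal), -0.69 to 0.43 for Ly6a (end stage against normal), -0.14 to 0.34 for Ly6a (day 28 against day 7), -0.20 to 0.18 for Ly6c1 (end stage against normal), -0.20 to 0.15 for Ly6c1 (day 28 against day 7), -0.23 to 0.055 for Scara5 (day 28 against normal), -0.45 to 0.13 for Sema3c (day 7 against normal), -0.43 to 0.058 for Sema3c (day 28 against normal), -0.37 to 0.31 for Sema3c (day 28 against day 7), -0.28 to 0.041 for Dpt (end stage against normal) and -0.16 to 0.17 for Dpt (end stage against day 28). Scaling to the pan-fibroblast sum shifted the median of all genes by -0.153 (day 7), -0.100 (day 28) and -0.187 (end stage) against normal. Over all genes, calls numbered 24 at the end stage against normal in the main analysis and 10 to 48 over the other tools, scalings, filters, subsets and the block, 24 and 4 to 56 against day 28, 28 and 3 to 130 against day 7, 41 and 10 to 98 jointly, 3 and 0 to 9 at day 7 against normal, and 0 and 0 to 30 at day 28 against day 7. Leaving out 1 library gave 3 (without normal replicate 4) to 41 against normal, 5 (without end stage replicate 4) to 53 against day 28, 1 (without end stage replicate 4) to 33 against day 7, and 12 (without end stage replicate 4) to 49 jointly, and 0 to 3 at day 7 against normal. Low counts kept Dpp4 out of the test, and whether depth or a low level (mean 13.96 CPM) set them was not tested. The 3 libraries under 150000 counts have the most counting error.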
